A study of Homo sapiens with 24 samples.

Results

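The genes described here are 7 genes of luminal prostate epithelium and of the androgen response: KLK3, KLK2, TMPRSS2, SLC45A3, FKBP5, NDRG1 and FOXA1, out of 20037 protein-coding genes. They were chosen by name, and a peak belonged to one of them where the deposited annotation gave that gene as the nearest transcription start site (TSS). By this rule 39 of 80150 peaks belonged to them, 17 of 51504 for BRG1, 15 of 22157 for BRM and 7 of 6489 for SNF5. KLK3 and KLK2 had no peak and are part of the account.

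The lists come from chromatin immunoprecipitation with sequencing in RWPE1, a long-used human cell line from benign epithelium of the prostate. Cells were infected with a lentivirus for the long noncoding RNA SCHLAP1 or for LACZ and selected in blasticidin at 2.5 ug/mL. BRG1, BRM and SNF5 were precipitated from SCHLAP1 cells only, on chromatin cut with MNase, so none of the values below compares SCHLAP1 with LACZ cells. The labels name 2 samples for each subunit, but each subunit has 1 list, so no value has a replicate spread, no test between samples can be made and the depth of the libraries is unknown. H3K27ac, H3K4me1, H3K4me3 and the inputs were not analysed here. A gene without a peak is one where none was called, which does not show that the protein was absent. The width of a peak is that of the called interval and not an amount of protein.

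Androgens are steroid hormones that switch on secretory genes such as the kallikreins in luminal cells of the prostate. The forkhead protein FOXA1 opens chromatin for this response. BRG1 (SMARCA4) and BRM (SMARCA2) are the alternative motor subunits of SWI/SNF complexes, which move nucleosomes, and SNF5 (SMARCB1) is a core subunit. Basal cells of the prostate respond little to androgen. The lists hold peaks and no expression.

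The 7 genes fell into 4 patterns. The luminal secretory genes KLK3 and KLK2 had no peak, TMPRSS2 had BRG1 alone, SLC45A3 had BRG1 with BRM, and FKBP5, NDRG1 and FOXA1 had all 3 subunits. BRG1 named 5 of the 7 genes, against 63.4% of all protein-coding genes. BRM named 4, against 49.5%, and SNF5 named 3, against 19.6%. Among all protein-coding genes 33.7% had no named peak, 15.5% had BRG1 alone, 29.2% had BRG1 and BRM without SNF5, and 17.9% had all 3. With 7 genes, nothing particular to them is read from these counts. A promoter peak, which the deposited annotation limits to within 1 kb of a TSS, was present for the same 5 genes in the BRG1 list (55.5% of all genes), for the same 4 in the BRM list (45.6%) and for FKBP5 and NDRG1 in the SNF5 list (18.1%). When peaks were counted by position instead, within 1 kb of the gene span, the same numbers of 5, 4 and 3 genes had a peak, against 70.1%, 57.0% and 24.2% of all genes.

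**Figure D1:**
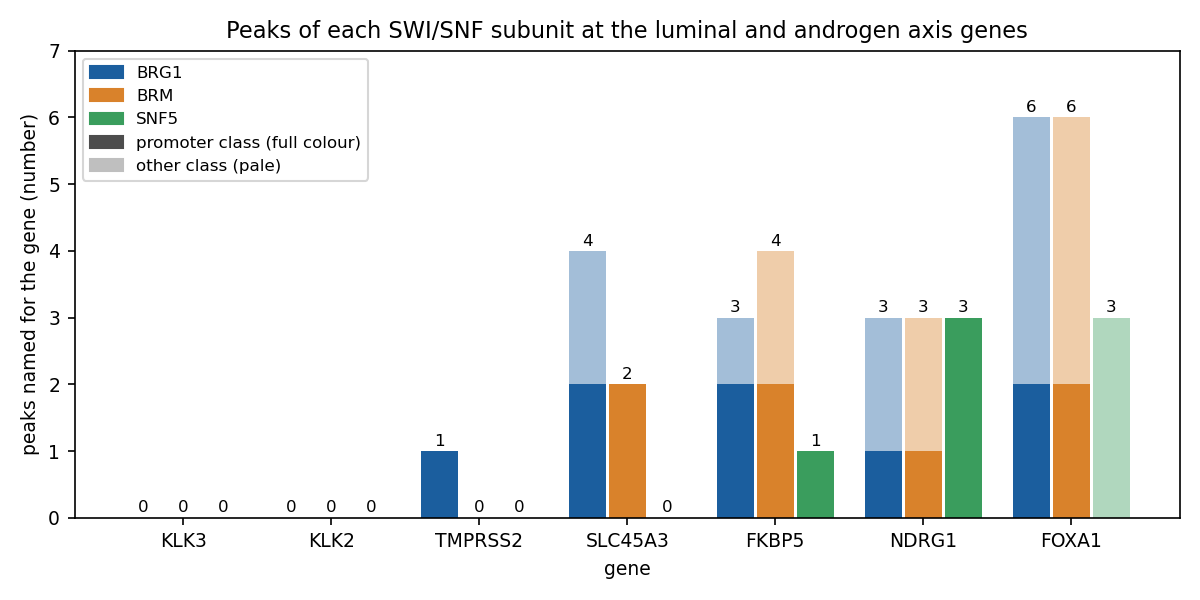
Number of peaks (vertical axis) whose nearest TSS is each of the 7 genes (horizontal axis), by subunit. Full colour marks promoter peaks and pale colour all other classes. KLK3 and KLK2 stand at 0 for every subunit and FOXA1 has 6 BRG1, 6 BRM and 3 SNF5 peaks, none of the SNF5 peaks at the promoter.

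Of the 17 BRG1 peaks, 8 were promoter, 6 distal, 2 exon and 1 intron peaks. BRM met 12 of them by at least 1 bp and SNF5 met 4, against 35.7% and 9.58% of all BRG1 peaks. The whole list is not matched to these peaks in class or width. Of all BRG1 promoter peaks 61.6% met BRM and 21.2% met SNF5, and of all BRG1 intron peaks 17.9% met BRM. BRG1 met 13 of the 15 BRM peaks (92.2% of all BRM peaks) and all 7 SNF5 peaks (96.1% of all SNF5 peaks). All 7 SNF5 peaks also met a BRM peak (91.9% of all), and 4 BRM peaks met SNF5 (21.9% of all). The median width of the BRG1 peaks was 1287 bp, against 667 bp over the whole list. It was 913 bp against 547 bp for BRM and 213 bp against 212 bp for SNF5.

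KLK3 and KLK2 encode the secreted proteases prostate-specific antigen and human kallikrein 2, which are made by luminal cells under androgen. KLK3 lies on chromosome 19 at 50854915 to 50860764 and KLK2 at 50873439 to 50880567 (RefSeq, GRCh38.p14, the same assembly as the hg38 of the peak lists). Neither gene span held a peak of any subunit. The BRG1 peak nearest to the start of KLK3 lay 18.6 kb away and the one nearest to the start of KLK2 23.1 kb away. The distances for BRM were 18665 and 23015 bp, and those for SNF5 50.3 and 68.8 kb. Of the protein-coding genes with a RefSeq start on a chromosome with peaks, 23.8% had their nearest BRG1 peak farther away than KLK3 and 22.3% farther than KLK2. For BRM these shares were 36.2% and 34.7%, and for SNF5 57.5% and 52.7%. Both genes thus lay in the more remote part of the distribution for BRG1 and BRM, and in the nearer part for SNF5.

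A single interval without peaks held both genes. In the BRG1 list it ran over 60.2 kb, from the end of a peak named for KLK15 (50835357 to 50836315) to the start of one named for the pseudogene KLKP1 (50896491 to 50897231). The BRM interval lay between peaks of the same names and was also 60.2 kb long. On chromosome 19, 8.0% of the intervals between neighbouring BRG1 peaks were as long or longer (median 7101 bp), and 14.1% of those between BRM peaks (median 10714 bp). For SNF5 the interval reached from C19orf48 to KLK8, over 197.2 kb, and 21.4% were as long or longer. These shares count each interval once. An interval picked for the genes it holds is more likely to be a long one, so they overstate how rare it is.

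The start regions of KLK3 and KLK2 are shown because they carry the elements for which these genes are known. Each line gives the 250 bases before the RefSeq start, 5′ to 3′, from RefSeq. KLK3 is chr19:50854665-50854914 and KLK2 is chr19:50873189-50873438, both on the plus strand. Capitals mark matches, on either strand, to the hexamer AGAACA of the androgen response element, to the core of the promoter element known as a GC box, which was searched as GGGCGG, and to the promoter element that positions the transcription machinery upstream of many starts, the TATA box, which was searched as TATAAA.
KLK3: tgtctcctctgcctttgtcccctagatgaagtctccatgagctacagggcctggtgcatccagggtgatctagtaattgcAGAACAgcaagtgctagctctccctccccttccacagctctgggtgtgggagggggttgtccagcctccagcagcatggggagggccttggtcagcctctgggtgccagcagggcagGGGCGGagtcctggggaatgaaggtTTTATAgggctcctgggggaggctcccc
KLK2: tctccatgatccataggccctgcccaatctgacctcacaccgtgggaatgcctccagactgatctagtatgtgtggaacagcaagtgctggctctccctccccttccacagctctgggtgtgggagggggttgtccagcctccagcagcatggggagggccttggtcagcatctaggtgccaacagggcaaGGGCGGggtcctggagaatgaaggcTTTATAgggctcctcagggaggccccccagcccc
In the KLK3 window the hexamer began 170 bases before the start, the GC box 53 and the TATA box 28 bases before it. KLK2 had the GC box 59 and the TATA box 34 bases before its start and no exact hexamer. It also held a CCAAT box, searched as its name reads, 227 bases before the start, which is left in lower case and is present in 32.0% of all windows. The KLK3 stretch of 15 bases that opens with the hexamer, agaacagcaagtgct, aligned with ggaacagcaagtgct in KLK2, and the only substitution was A1G, with positions counted from 1 at the 5′ end of the stretch and the KLK3 base first. Over the whole windows 205 positions were identical (79.2% of the alignment, with 36 mismatches and 18 gap positions). Whether reads that match both genes were kept is not given in the sources used here, and its part in the absence of peaks was not tested. Of 34943 windows of this length, 12.4% held the hexamer, 10.8% the TATA box and 42.5% the GC box. An exact copy of the full element, 2 such hexamers facing each other across 3 bases, was in neither window and in 0.00286% of all windows. Imperfect forms of the element were not searched. Whether the stretch of 15 bases is such a form in either gene was not tested. KLK3 had 1 CpG and KLK2 had 2, against a median of 11.

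Peaks in the rest of the kallikrein cluster were unevenly spread. The cluster of 15 KLK genes spans 265.1 kb, and its members differ in where they are used: KLK3, KLK2 and KLK4 are known from the prostate, while KLK5, KLK7 and KLK8 are proteases of the skin barrier and of other stratified epithelia. It held 18 BRG1, 11 BRM and 2 SNF5 peaks. Of these, 14 BRG1, 8 BRM and both SNF5 peaks lay within the 84.7 kb from KLK5 to KLK11, where all 7 genes were named by BRG1. The 92.2 kb from KLK1 to KLK4, which hold KLK3 and KLK2, had 2 BRG1 and 2 BRM peaks and no SNF5 peak, and 1 of its 5 genes, KLK15, was named. The 55.1 kb from KLK12 to KLK14, with 3 genes, held 0 peaks of any subunit, so KLK3 and KLK2 were not the only genes of the cluster in a stretch without peaks. BRM met 9 of the 14 BRG1 peaks in the stretch from KLK5 to KLK11 and both of those in the stretch from KLK1 to KLK4.

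Within the stretch from KLK5 to KLK11, KLK6 had 3 BRG1 and 2 BRM peaks, the widest BRG1 peak being 1346 bp, at the promoter. KLK8 had 3 BRG1 peaks, 2 BRM peaks and 1 SNF5 peak of 462 bp. KLK10 had 2, 2 and 1, with a promoter BRG1 peak of 1899 bp (51018711 to 51020609). KLK5 had 2 BRG1 peaks and 1 BRM peak, and KLK11 had 1 of each. KLK9 had a promoter BRG1 peak of 2003 bp (51008701 to 51010703), the widest BRG1 peak named for a gene of the cluster, and no BRM peak. KLK7 had 1 BRG1 peak, in an intron. KLK15 had 1 BRG1 peak of 959 bp and 1 BRM peak of 538 bp. KLK14 was named by 1 BRM peak of 443 bp that lay outside the cluster, while KLK1, KLK4, KLK12 and KLK13 were named by none.

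**Figure D2:**
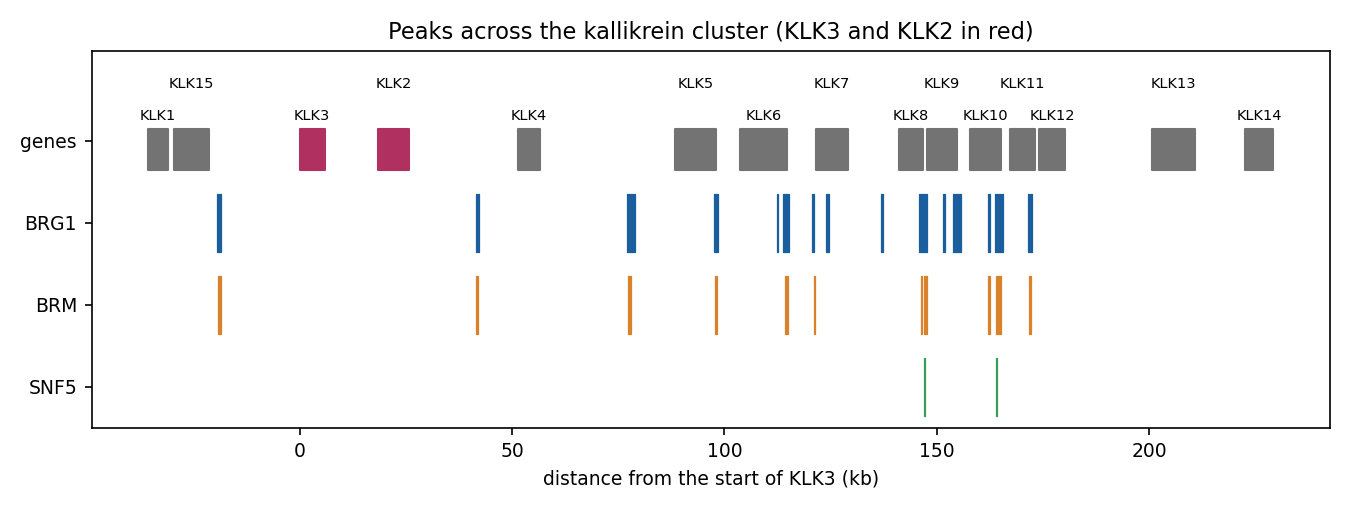
Peaks of the 3 subunits along the kallikrein cluster, with the distance from the start of KLK3 in kb on the horizontal axis and 1 row each for genes, BRG1, BRM and SNF5. KLK3 and KLK2, in red, lie in the interval of 60.2 kb without BRG1 or BRM peaks, while 14 of the 18 BRG1 peaks lie between KLK5 and KLK11.

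TMPRSS2 encodes a transmembrane serine protease whose gene is induced by androgen and often fused to ERG in prostate cancer. It lies on chromosome 21 at 41464305 to 41508158, on the minus strand. A single BRG1 peak of 1287 bp (41507247 to 41508533), wider than or as wide as 81.8% of the list, covered its RefSeq start and was annotated as promoter, 89 bp from a TSS. Neither BRM nor SNF5 met it. The BRM peak nearest to the start lay 81.8 kb away, at the promoter of MX1 on the other side of the gene, and the nearest SNF5 peak lay 228.3 kb away. The gene span, of 43854 bp, held no other peak. Upstream of the gene the next BRG1 peak, of 817 bp, began 28003 bp beyond the start and was named for SNORA32.

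Over all BRG1 promoter peaks 61.6% met a BRM peak. Among the 1552 promoter peaks from 1200 to 1400 bp wide, a range set after the width of the TMPRSS2 peak was known, 86.1% did. The TMPRSS2 peak did not. Of all protein-coding genes, 2001 besides TMPRSS2 shared its numbers of 1 BRG1, 0 BRM and 0 SNF5 peaks. The closest in the width of the BRG1 peak were CYP1A1, a cytochrome P450 (1287 bp), and USP28, a deubiquitinase (1288 bp).

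SLC45A3, or prostein, is a membrane protein of prostate epithelium whose gene is also a fusion partner in prostate cancer. The gene lies on chromosome 1 at 205657851 to 205680509, on the minus strand. BRG1 had 4 peaks. The widest, of 1433 bp (205680125 to 205681557), covered the RefSeq start, and a second promoter peak of 660 bp (205679352 to 205680011) followed within the gene. Each promoter peak met a BRM peak, of 328 bp (205680159 to 205680486) and 454 bp (205679578 to 205680031). The BRM peaks covered 22.9% and 65.8% of the BRG1 peaks they met, and the narrower one ended 23 bp short of the RefSeq start. The 2 other BRG1 peaks, of 763 bp in an exon and 340 bp just beyond the end of the gene, met neither list.

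No SNF5 peak was named for SLC45A3. The nearest to its start lay 48.3 kb away at the promoter of the neighbour ELK4, an ETS factor gene with which SLC45A3 forms fusion transcripts. ELK4 was named by 4 BRG1 peaks, 2 BRM peaks and 1 SNF5 peak within 50 kb of SLC45A3. SLC45A3 shared its numbers of 4, 2 and 0 peaks with 129 other genes, of which MAST3 (widest BRG1 peak 1423 bp) and ZNF580 (1409 bp) were closest in width. Its window before the start, chr1:205680510-205680759 on the minus strand, lay wholly inside the BRG1 peak and outside the BRM peaks, and is shown for contrast with the KLK windows. Capitals mark GC boxes.
SLC45A3: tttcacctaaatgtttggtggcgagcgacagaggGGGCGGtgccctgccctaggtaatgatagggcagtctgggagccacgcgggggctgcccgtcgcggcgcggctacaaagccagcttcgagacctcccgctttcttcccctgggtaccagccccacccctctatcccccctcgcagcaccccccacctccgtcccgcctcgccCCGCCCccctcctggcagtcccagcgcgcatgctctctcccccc
It held 19 CpG and 2 GC boxes, 216 and 44 bases before the start, and neither a TATA box nor the hexamer.

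FKBP5 encodes FKBP51, a co-chaperone of HSP90 in steroid receptor complexes, and is a textbook target of both androgens and glucocorticoids. Hormone-bound sites in its introns are well known. The gene lies on chromosome 6 at 35573590 to 35728583, on the minus strand, and RefSeq gives it 2 starts, at 35728583 and 35688915. A BRG1 peak covered each. The one at the upstream start was 3501 bp wide (35726121 to 35729621), as wide as or wider than 99.4% of the list. The one at the inner start was 2213 bp wide (35687086 to 35689298). A further peak of 1832 bp, annotated as distal, (35731254 to 35733085) lay upstream of the gene.

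Each of these 3 BRG1 peaks held a BRM peak. At the upstream start it was 1522 bp wide (35727513 to 35729034), or 43.5% of the BRG1 peak. The BRM peaks at the inner start (1122 bp) and at the distal site (1093 bp) took 50.7% and 59.7%. SNF5 had 1 peak, of 457 bp (35727914 to 35728370), inside both peaks at the upstream start and 213 bp from it. BRM had a further peak of 310 bp in an intron (35710126 to 35710435), 15685 bp from the nearest BRG1 peak.

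The gene span of FKBP5 held far more BRG1 peaks than were named for it. There were 16, of which 2 carried its name and 14 were named for AL033519.1, MIR5690 and SNORA40, genes with a start inside the span. The group named for AL033519.1 had 8 peaks over 10510 bp (35596284 to 35606793), in the downstream part of the gene. Another group named for MIR5690 had 5 peaks over 7903 bp (35662895 to 35670797), of which 2 were annotated as promoter peaks of that microRNA gene, and 1 was named for SNORA40. The 14 peaks were from 342 to 1588 bp wide, with a median of 445.5 bp. BRM met 1 of the 14, at the widest one (35600887 to 35602474), and SNF5 met none. Over all BRG1 intron peaks 17.9% met BRM. In all, 0.7% of protein-coding genes had more BRG1 peaks in their span. FKBP5 is long, and per 10 kb of span it had 1.032 BRG1 peaks, against a median of 0.589 over the genes with at least 1. BRM thus accompanied BRG1 at both starts and at 1 of the 14 other sites in the span, and SNF5 at the upstream start alone.

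**Figure D3:**
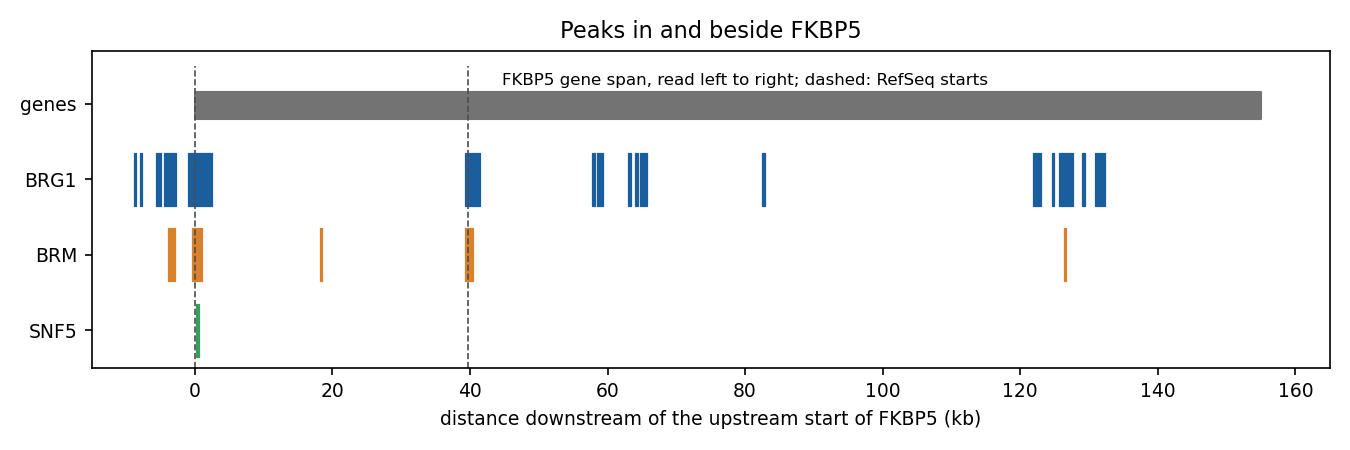
Peaks of the 3 subunits in and beside FKBP5, with the distance downstream of its upstream RefSeq start in kb on the horizontal axis (negative values lie upstream). Dashed lines mark the 2 starts. BRG1 and BRM peaks coincide at both, whereas the 14 BRG1 peaks of the span that carry other names meet a single BRM peak and no SNF5 peak.

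The windows before the 2 starts of FKBP5 are shown because both lay wholly within BRG1 and BRM peaks and yet differ in sequence. FKBP5 upstream start is chr6:35728584-35728833 and FKBP5 inner start is chr6:35688916-35689165, both on the minus strand. Capitals mark GC boxes and ACGTG (core of the hypoxia response element).
FKBP5 upstream start: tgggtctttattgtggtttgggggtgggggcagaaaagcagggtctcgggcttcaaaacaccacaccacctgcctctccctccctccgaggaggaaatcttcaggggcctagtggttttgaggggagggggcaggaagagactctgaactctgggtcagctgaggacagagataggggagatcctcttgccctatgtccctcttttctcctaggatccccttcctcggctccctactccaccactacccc
FKBP5 inner start: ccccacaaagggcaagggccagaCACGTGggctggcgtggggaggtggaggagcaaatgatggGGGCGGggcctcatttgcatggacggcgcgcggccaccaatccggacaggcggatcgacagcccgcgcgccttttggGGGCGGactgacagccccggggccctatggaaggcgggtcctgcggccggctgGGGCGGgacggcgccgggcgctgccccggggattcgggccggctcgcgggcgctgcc
The upstream window held 3 CpG and no match to any motif searched. The inner window held 29 CpG, 3 GC boxes and the palindrome CACGTG, which reads as ACGTG on both strands. ACGTG was present in 18.5% of all windows. A CCAAT box 151 bases before the start is left in lower case. Of all windows 85.9% had fewer CpG than the inner one and 22.9% fewer than the upstream one. Neither held the hexamer of the androgen response element. FKBP5 shared its numbers of 3 BRG1, 4 BRM and 1 SNF5 peaks with 16 other genes. The closest in the widest BRG1 peak were LY6D, a surface protein of epithelial cells (3437 bp), and STAT6, a transcription factor of cytokine signalling (2979 bp).

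NDRG1 is a stress-response gene that is induced by androgen in prostate cells and also by low oxygen. It lies on chromosome 8 at 133237175 to 133297252, on the minus strand. Its promoter BRG1 peak was 4704 bp wide (133294072 to 133298775), and 99.9% of the list was as narrow or narrower. It covered the RefSeq start. A BRM peak of 3216 bp (133295213 to 133298428) also covered it, and with a second BRM peak of 1136 bp in the first part of the gene took up 89.5% of the BRG1 peak. Another BRM peak of 497 bp lay 373 bp from the BRG1 peak. SNF5 had 3 peaks inside the BRG1 peak, of 751, 176 and 174 bp, which together took up 23.4% of it. The 176 bp peak ended 11 bp from the RefSeq start. Of all protein-coding genes 1.22% were named by 3 or more SNF5 peaks.

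Near the other end of NDRG1 lay 2 distal BRG1 peaks, of 775 and 335 bp. The narrower one met, over 42 bp, a BRM peak (133234704 to 133235207) that was named for WISP1-OT1, an RNA gene of the WISP1 locus on that side. NDRG1 was therefore the member with the widest peak in each list, while its gene span beyond the promoter held no BRG1 peak. Its numbers, 3 peaks for each subunit, were shared by 4 other genes, of which RPL8, a ribosomal protein gene (3643 bp), and ZFP36, whose protein promotes decay of mRNA (2815 bp), were closest.

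FOXA1, the forkhead pioneer factor of luminal cells, had the most peaks of the 7 genes, with 6 for BRG1, 6 for BRM and 3 for SNF5. No other protein-coding gene had these numbers. The gene is short, at 5698 bp on the minus strand of chromosome 14 (37589552 to 37595249), and the peaks spread on both sides of it. BRG1 peaks of 1231 bp (37595353 to 37596583) and 970 bp (37593963 to 37594932) flanked the RefSeq start. Next came a peak of 2237 bp in an exon (37591032 to 37593268), one of 2099 bp over the end of the gene (37587461 to 37589559), one of 1593 bp beyond it and one of 377 bp upstream. BRM met all but the last. It took up 97.7% of the 1231 bp peak, 86.3% of the 2237 bp peak and 44.8% of the 970 bp peak.

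The RefSeq start of FOXA1, at 37595249, lay in an interval between peaks. It was 420 bp long for BRG1 (37594933 to 37595352) and 400 bp for BRM (37594954 to 37595353), so both lists left out nearly the same bases. A peak of BRG1 covered the RefSeq start of TMPRSS2, SLC45A3, FKBP5 and NDRG1, and of 53.6% of protein-coding genes with a RefSeq start. For BRM these were FKBP5 and NDRG1 (41.8%), and for SNF5 none of the 7 (8.97%). The deposited distances of the 2 flanking peaks, 88 and 183 bp, are measured to TSSs of the authors' annotation, which need not be the RefSeq start.

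No SNF5 peak at FOXA1 was a promoter peak under the limit of 1 kb. With a limit of 3 kb, SNF5 had promoter peaks at 3 of the 7 genes instead of 2. Its peaks of 372 bp (37592225 to 37592596) and 183 bp (37592758 to 37592940) fell inside the 2237 bp BRG1 peak within the gene. The remaining one, of 213 bp (37588200 to 37588412), lay just beyond the gene, inside the 2099 bp peak. The one nearest to the RefSeq start, of 183 bp, was 2309 bp away from it, and its deposited distance to a TSS was 1410 bp. The 3 SNF5 peaks of NDRG1 and the 1 of FKBP5 were promoter peaks.

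**Figure D4:**
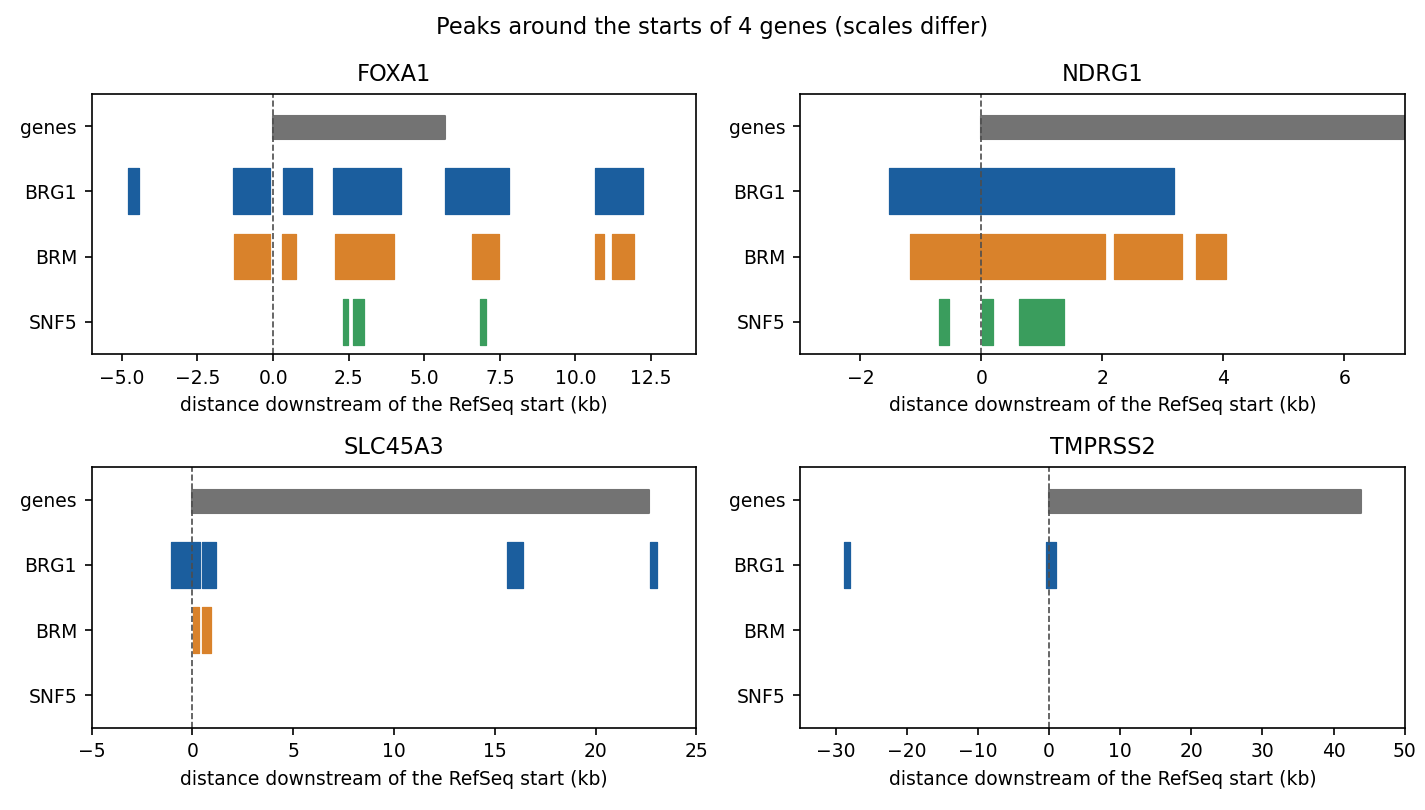
Peaks of the 3 subunits around the RefSeq starts (dashed) of FOXA1, NDRG1, SLC45A3 and TMPRSS2, with the distance downstream of the start in kb on the horizontal axes, whose scales differ. At FOXA1 the start falls between peaks and SNF5 peaks lie 2309 bp or more downstream of it, at NDRG1 3 SNF5 peaks lie within the BRG1 peak of 4704 bp, and at TMPRSS2 BRG1 stands alone.

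The FOXA1 window before the start is shown because peaks cover only its upstream part. It is chr14:37595250-37595499 on the minus strand, of which 147 bp lay in the BRG1 and 146 bp in the BRM peak. Capitals mark TGTTTGC (a forkhead motif, here on the reverse strand) and GC boxes.
FOXA1: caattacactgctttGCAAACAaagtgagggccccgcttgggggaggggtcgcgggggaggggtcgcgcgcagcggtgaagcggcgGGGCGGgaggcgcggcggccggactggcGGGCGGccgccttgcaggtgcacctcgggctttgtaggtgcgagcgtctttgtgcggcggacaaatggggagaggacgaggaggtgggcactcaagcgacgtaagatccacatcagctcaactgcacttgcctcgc
The forkhead match began 235 bases before the start, in the part that both peaks covered, and 3.24% of all windows held one. The window had 26 CpG, more than 80.4% of windows, and GC boxes 164 and 136 bases before the start. TGTTTAC, the other forkhead motif searched, and TGANTCA, the AP-1 motif, were in none of the 6 windows of KLK3, KLK2, SLC45A3, FKBP5 and FOXA1, against 2.98% and 6.59% of all windows. A match of letters is a description, and the absence of a match says only that these letters are not in the window.

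Beyond the 7 genes, 30 genes known to be induced by androgen, 6 of the 7 included, were named by BRG1 in 25 cases (83.3%, against 63.4% of all protein-coding genes), by BRM in 16 (53.3%, against 49.5%) and by SNF5 in 10 (33.3%, against 19.6%). The median number of BRG1 peaks was 3, against 1 over all protein-coding genes. ELL2, an elongation factor of RNA polymerase II, had 11 BRG1 peaks, the widest of 4772 bp in an intron, with 2 BRM and 2 SNF5 peaks. C1orf116 had 11, 7 and 1, and PMEPA1, an inhibitor of TGF-beta signalling, had 19, 17 and 5. KLK4 and ORM1 were among the genes of the list without a peak. Without the 6 genes described above, BRG1 named 21 of 24, BRM 13 and SNF5 8.

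Genes for cofactors of androgen signalling and related proteins, FOXA1 included, were named by BRG1 in 19 of 20 cases (95.0%, against 63.4% of all protein-coding genes), by BRM in 17 (85.0%, against 49.5%) and by SNF5 in 9 (45.0%, against 19.6%). NCOA3, a coactivator, had 15 BRG1 peaks, 1 BRM peak and 1 SNF5 peak, with a promoter peak of 3086 bp, and KDM1A, a histone demethylase, had 1, 1 and 0. NR3C1, the glucocorticoid receptor gene, named here after its values were seen because FKBP5 is a target of glucocorticoids, had 6, 1 and 4.

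Basal genes of the prostate were named more often than luminal genes by each subunit, and this difference was not tested. Of 21 luminal genes, 5 of them described above, BRG1 named 14 (66.7%), BRM 11 (52.4%) and SNF5 3 (14.3%), near the shares of all genes. The median peak numbers of the luminal genes were 1, 1 and 0. Without the 5 genes described above, BRG1 named 11 of 16, BRM 9 and SNF5 2. PSCA had 4 BRG1 and 4 BRM peaks, the widest BRG1 peak of 3779 bp, and KRT8, a keratin of simple epithelia, had 8 and 4. ACP3, prostatic acid phosphatase, had 1 BRG1 peak of 2059 bp and no BRM peak. Luminal genes without any peak numbered 7, among them AZGP1, CD38 and the protease gene HPN. Of 20 basal genes BRG1 named 18 (90.0%), BRM 17 (85.0%) and SNF5 10 (50%), with median peak numbers of 4, 3 and 0.5. ITGA3, an integrin, had a BRG1 peak of 6050 bp, COL17A1, a hemidesmosome collagen, one of 4171 bp, and S100A2 one of 3656 bp. BCL2 was the only basal gene without a peak. The lists are not matched for gene length, and longer genes have room for more peaks.

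**Figure D5:**
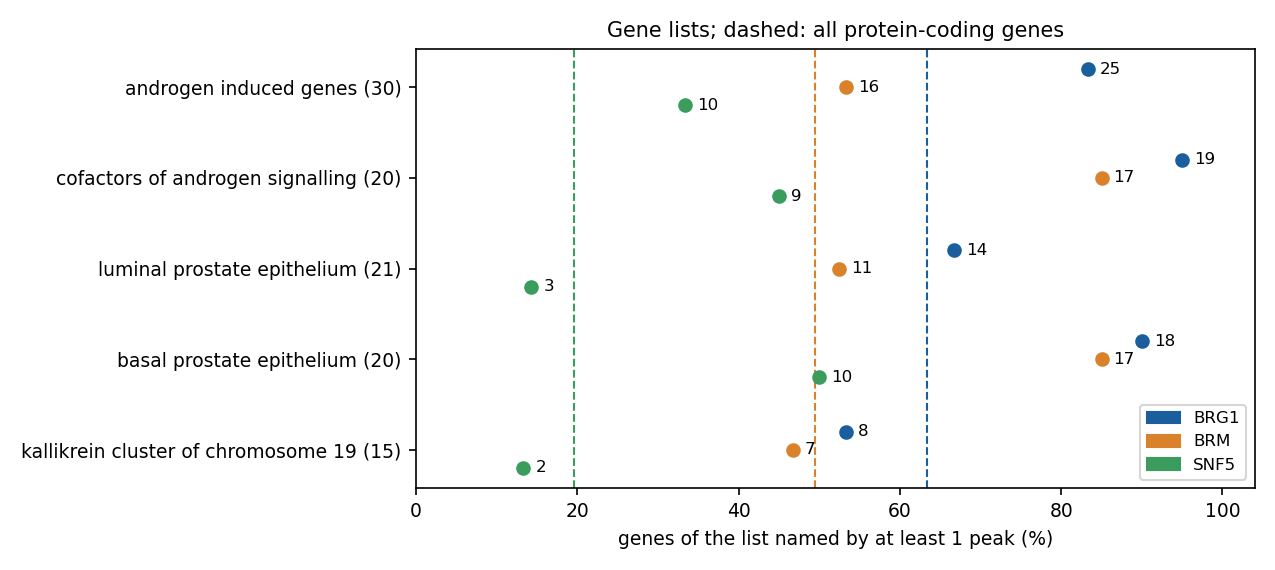
Share of the genes of each list named by at least 1 peak (horizontal axis, percent), for BRG1, BRM and SNF5, with the number of genes named beside each point and the size of the list in brackets. Dashed lines give the shares over all protein-coding genes. The androgen-induced, cofactor and basal lists lie to the right of all 3 lines and the kallikrein list to the left of them. The luminal list lies to the right for BRG1 and BRM and to the left for SNF5. For BRM the androgen-induced (53.3%), luminal (52.4%) and kallikrein (46.7%) lists all lie close to the line (49.5%).

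Peaks at the defining markers of prostate and other cell types were counted in the same way, and the shares of all protein-coding genes to set beside them are 63.4% for BRG1, 49.5% for BRM and 19.6% for SNF5. Of 6 luminal markers BRG1 named 3, BRM 2 and SNF5 0. MSMB was among those named by no subunit, though 1 BRG1 peak lay within 1 kb of its span. Of 5 basal markers the counts were 4, 4 and 1. Of 3 neuroendocrine markers BRG1 named 2, BRM 1 and SNF5 0, and of 3 blood markers the counts were 3, 1 and 0. The 3 stromal markers (DCN, ACTA2 and PECAM1) had no peak of any subunit. With 3 to 6 markers a type, nothing is read from these counts. A peak at a marker gives no level of expression, so these counts describe occupancy and do not check the identity of the line.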

How the data were processed

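The authors deposited 1 peak list each for BRG1, BRM and SNF5 in SCHLAP1 cells. Per the file headers these give the start, end, width and class of each peak, its nearest TSS and the distance to it in bp, with no score or count of reads. Bowtie2, SAMtools, MACS2, deepTools 2.5.2 and hg38 stand in the submitters' processing notes without roles. Threshold, filter and any pooling of replicates: not given in the sources used here. Promoter peaks lay at most 998 bp from a TSS.

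Peak names were looked up among RefSeq symbols of GRCh38.p14 for that chromosome, then among unambiguous synonyms. A RefSeq gene was found for 81.3% (BRG1), 86.9% (BRM) and 90.4% (SNF5) of peaks. Overlap meant at least 1 bp. Starts came from the RefSeq promoter table, or, for TMPRSS2 and NDRG1, from the end of the gene span and the known strand. Motifs were searched on both strands of the 250 bases before each start. Genes were named by list, as the 3 members whose BRG1 peaks were widest and at most 3 that lacked peaks, and all kallikrein genes with a peak. Some genes that this rule names are not reported here. Genes with equal numbers of peaks were ranked by the width of the widest BRG1 peak. The 7 genes and the lists were chosen with earlier results of these data known. Routines were tested on simulated data. Python 3.11.15, pandas 2.3.3, numpy 2.4.6, biopython 1.88 and matplotlib 3.10.9 were used. Alternatives changed how peaks were given to genes, the promoter limit, the overlap and the peaks kept.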

Additional observations from a re-analysis of the deposited data

How the results depend on the processing

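Of 102 values under alternatives, 76 stayed within 1.5 times the main value and 26 moved further. The alternative with equal numbers of peaks keeps the whole SNF5 list. Its SNF5 values therefore could not move, and they are counted among the 76. KLK3 and KLK2 had no peak within 10 kb of their starts or 1 kb of their spans. With equal numbers (the 6489 widest peaks of each list), BRG1 named 3 of the 7 genes with 7 peaks and BRM had 8 peaks. BRG1 then named 12 androgen-induced, 12 cofactor, 6 luminal and 2 kallikrein genes, and BRM 9 androgen-induced, 6 luminal and 1 kallikrein gene. The shares of all protein-coding genes named fell likewise, to 20.5% for BRG1 and 22.6% for BRM. With the wider 50% of each list the 7 genes had 9 BRM and 4 SNF5 peaks. BRM then named 6 luminal and 3 kallikrein genes (against 34.3% of all protein-coding genes), and SNF5 6 basal genes (against 11.4%). Counted within 1 kb of the gene spans, BRG1 had 27 peaks. Within 50 kb of the RefSeq starts BRG1 had 38 peaks at 7 genes and BRM 23 at 6, against 83.8% and 72.0% of genes. A peak that covers the RefSeq start was present for 2 genes with BRM (against 41.8% of genes) and 0 with SNF5 (8.97%). Under reciprocal overlap of 50%, 6 BRG1 peaks met BRM and 6 BRM peaks met BRG1. Under the same rule 0 BRG1 and 0 BRM peaks met SNF5, and 0 SNF5 peaks met BRG1 or BRM, since SNF5 peaks are narrow. No paired analysis was possible because the lists carry no replicate. The depth is unknown, so which sites were too shallow to be called cannot be said.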

Other observations

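The gene families to which 5 of the 7 genes belong (NDRG1, FOXA1, FKBP5, TMPRSS2 and SLC45A3) were counted in the same way. The shares of all protein-coding genes to set beside them are 63.4% (BRG1), 49.5% (BRM) and 19.6% (SNF5). All 4 NDRG genes were named by BRG1 and BRM, and SNF5 named NDRG1 alone. NDRG2 had 2 BRG1 peaks and 1 BRM peak, NDRG3 had 1 and 3, and NDRG4 had 2 and 1, with widest BRG1 peaks of 1862, 1693 and 806 bp against 4704 bp for NDRG1. In the FOXA family, the forkhead factors of endoderm, FOXA2 had 1 BRG1 and 1 BRM peak and FOXA3 had 1 BRG1 peak of 449 bp, against 6 and 6 for FOXA1. Of 15 FKBP genes, which encode proteins of the immunophilin type, BRG1 named 11 (73.3%), BRM 10 (66.7%) and SNF5 4 (26.7%). FKBP14 (1730 bp), FKBP2 (1463 bp) and FKBP9 (1298 bp) had the widest BRG1 peaks after FKBP5. FKBP6 was the only FKBP gene named by no peak of any subunit.

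Of 14 transmembrane serine protease genes, BRG1 named 9 (64.3%, near the share of all genes), BRM 4 (28.6%, below it) and SNF5 0. ST14, which encodes matriptase, had 9 BRG1 and 2 BRM peaks, the widest BRG1 peak of 2264 bp at the promoter. TMPRSS4 had 3 and 1. CORIN had 1 BRG1 peak of 1065 bp without BRM, as TMPRSS2 did, and HPN, TMPRSS11A and TMPRSS15 had none. Of the 4 SLC45 genes, SLC45A4 had 5 BRG1 and 5 BRM peaks, SLC45A1 had 1 BRG1 peak of 350 bp and SLC45A2 had none.

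The name of the nearest TSS left out peaks at other genes of these lists as it did at FKBP5. ITGA6, an integrin of basal cells, was named by no BRG1 peak although 14 lay within 1 kb of its span. NR3C1 was named by 6 while 15 lay there. TP63, the master factor of basal epithelium, was named by 12 with 16 there, and BRM, which named it in no case, had 2. These genes were picked after their values were seen.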
